A study of Saccharomyces cerevisiae with 4 samples.

Results

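The set described here holds the budding yeast genes that build and run the DNA replication machinery. It comprises 49 genes listed by name for origin licensing, origin firing and the replication fork, and all 49 were measured, out of 5539 named genes on the arrays. They were found by matching the listed symbols to the annotation of the array platform, with no use of their values. The listed genes corresponded to 50 probes, because MRC1 had 2 probes, which were averaged.

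RNA of the Saccharomyces cerevisiae mutant abf1-1, which carries a temperature-sensitive allele of ABF1, was set against RNA of wild type cells on each of 4 arrays with 2 channels. Both strains grew in YPAD, a rich medium, at 30 °C until the OD600 was between 1.0 and 1.2, and each flask then received an equal volume of YPAD warmed to 42 °C. Cells were harvested 45 min into the 36 °C incubation, so the wild type cells passed through the same heat shift as the mutant. The sources used here give neither strain background, mating type and dyes nor the number of separate cultures. A p-value therefore reflects array-to-array spread alone, and that spread may be technical.

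Every value below is a log2 ratio within an array, taken as log2 from the spread of the values. Whether the mutant or the wild type channel stands in the numerator is not stated, so signs are given as deposited, and no gene is called higher in either strain. Because the arrays hold ratios and no levels, the identity of the cells could not be checked against marker levels, and fewer cells in S phase cannot be told apart from less RNA per cell.

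Before S phase the origin recognition complex, ORC, sits on origins and, with Cdc6 and Cdt1 (encoded by TAH11), loads the Mcm2-7 helicase, a step called licensing. The kinases Cdc7-Dbf4 and S phase CDK then bring in Cdc45 and the GINS complex to activate the helicase, and DNA polymerases copy the strands behind it. Abf1 binds beside some yeast origins, and many replication genes have transcripts that peak near the entry into S phase.

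The arrays did not behave alike, and this set shared the disagreement. Over all 6226 probes the Pearson r was 0.742 between arrays 1 and 3 and 0.864 between arrays 2 and 4, with -0.221 to 0.05 across. Over the 49 genes r was 0.697 between arrays 1 and 3 and 0.902 between arrays 2 and 4. Across these pairs it was -0.585, -0.49, -0.769 and -0.699. Without the 6 genes of largest disagreement, named below, r across the pairs was -0.038, 0.204, -0.326 and -0.107 over the other 43. These correlations are across genes measured on the same arrays, and they are given as a description. The labels give no reason for this split, which was read off the values.

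None of the 49 genes passed the test over the 4 arrays. In limma's test of each mean against 0, with Benjamini-Hochberg adjustment over all 6189 features, 0 of 49 had an adjusted p below 0.05, while 3.23% of all features were called. At an unadjusted p below 0.05, 3 of 49 genes, or 6.12%, passed, against 20.8% of all features. These were CDC6, POL31 and MRC1.

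The mean log2 ratios of the 49 genes ran between -0.57 and 0.30, with a median of -0.01, against 0.02 over all features. Of the 49, 27 had a negative and 22 a positive mean, a negative share of 55.1% against 47.5% of all features. The median size of the mean, whatever its sign, was 0.13 for the 49 genes and 0.19 for all features. The median SD over arrays was 0.27 and 0.28. For 34 of the 49 genes, or 69.4%, limma's 95% interval of the mean lay within 1.5-fold of no difference, as it did for 52.1% of all features. For the other 15 the interval reached past 1.5-fold, so a difference of that size could not be bounded with 4 arrays. These intervals take the arrays as independent.

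**Figure D1:**
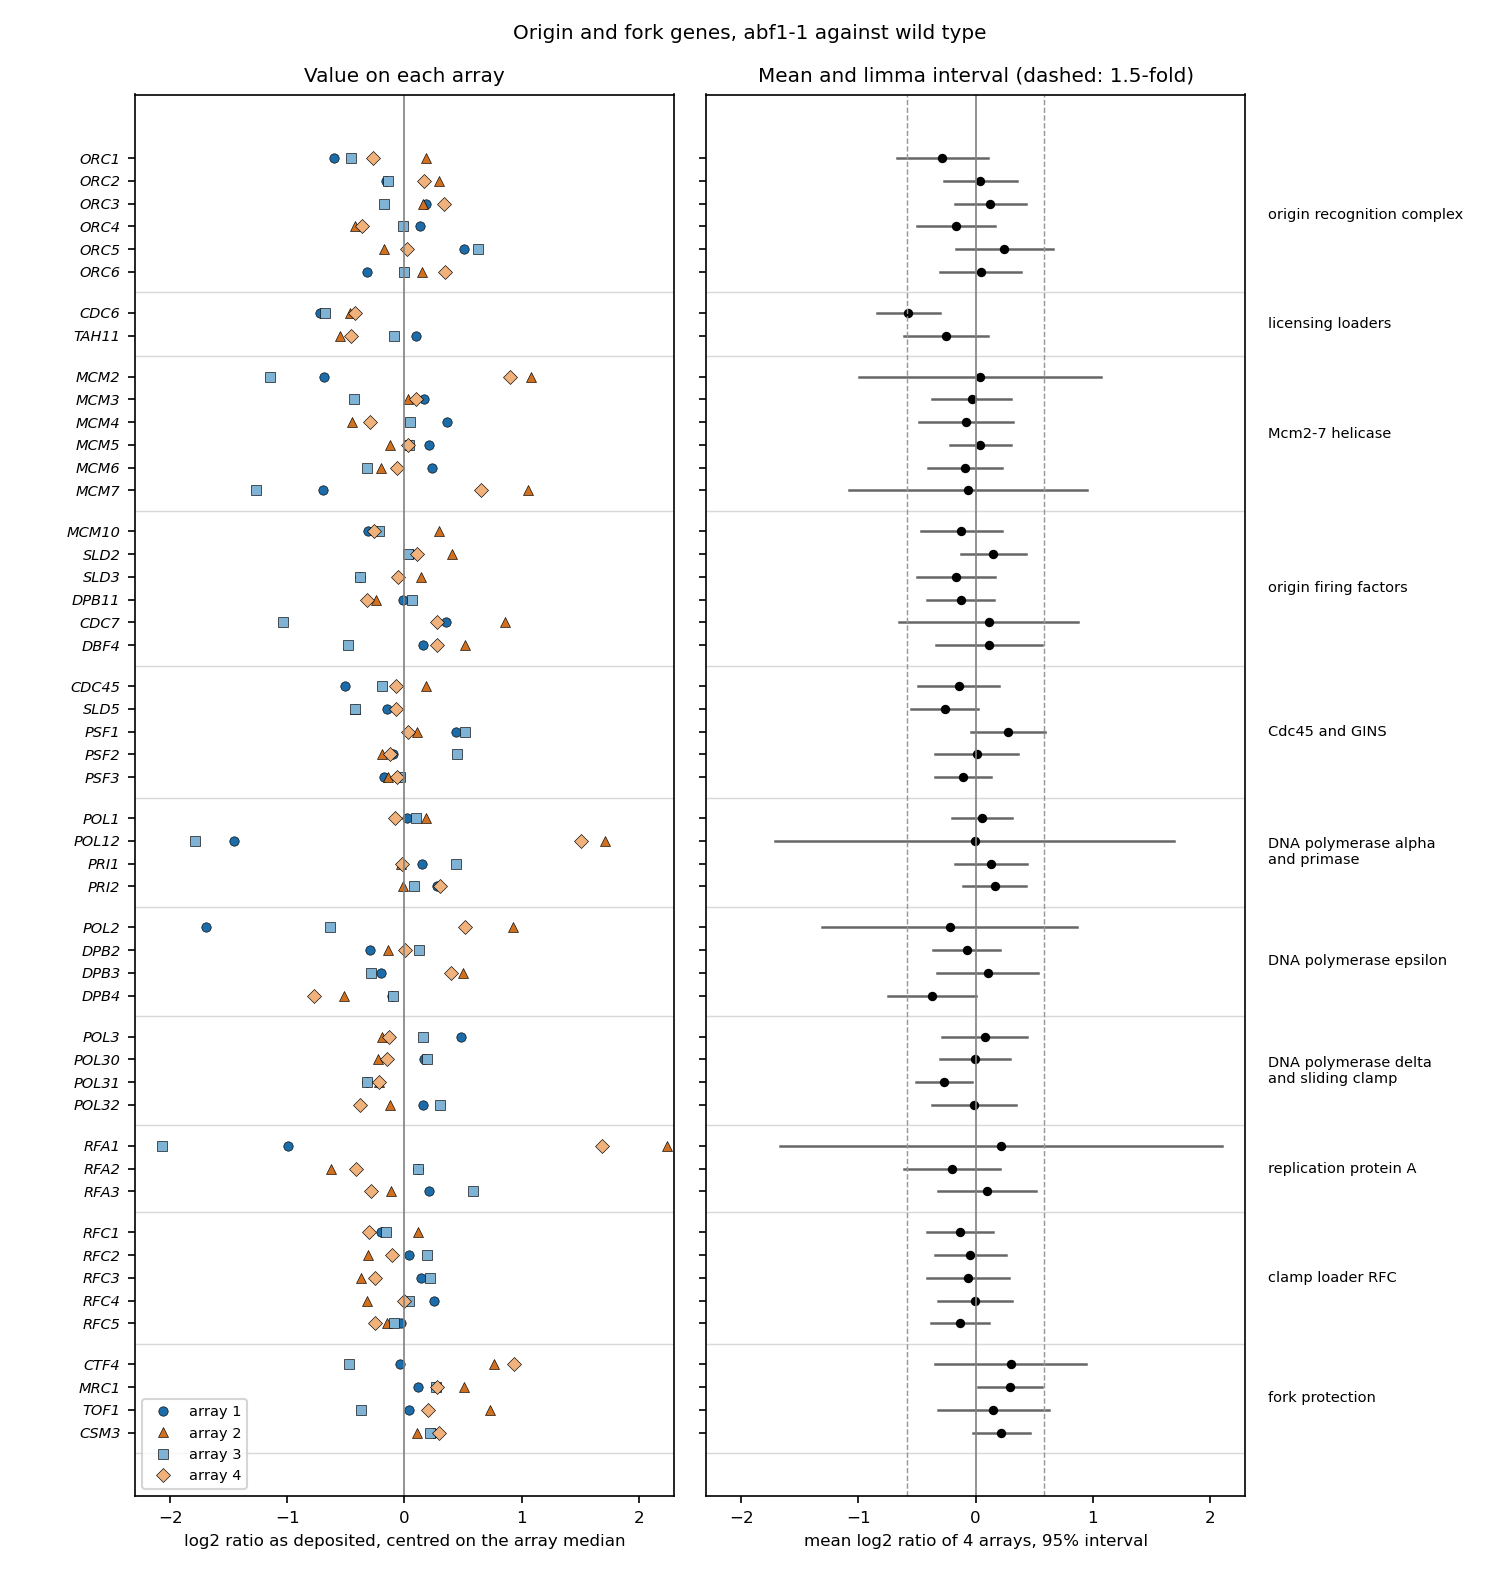
Left, the log2 ratio of each of the 49 genes on arrays 1 to 4, as deposited and centred on the array's median. Right, the mean of the 4 arrays (point) with limma's 95% interval (line) and dashed lines at 1.5-fold. CDC6 lies below 0 on all 4 arrays with a mean of -0.57, while RFA1, POL12, MCM2, MCM7 and POL2 lie below 0 on arrays 1 and 3 and above 0 on arrays 2 and 4, with wide intervals.

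The licensing loaders had the most negative median of the 11 complexes, -0.41, though neither gene passed the test. CDC6, the ATPase that joins ORC at origins and loads the helicase, had -0.72, -0.47, -0.68 and -0.42 on arrays 1 to 4. It was below 0 on all 4 arrays, and among the genes of the set with 1 sign throughout none was as far from 0 on its weakest array. Its mean of -0.57 ± 0.15 (SD, n = 4) is a 1.49-fold difference, with a limma 95% interval of -0.84 to -0.30 and an adjusted p of 0.0581, just above the threshold of 0.05. By p it ranked 236 of 6189 features. With any 1 array left out it lay between 0.149 and 0.264. In a fit with a term for the array pairs, which was read off these same values and in which 32.7% of all features passed, the adjusted p of CDC6 was 0.00196, and it is no independent support. TAH11, for the loader protein Cdt1, had 0.10, -0.55, -0.09 and -0.46. The values of arrays 2 and 4 were clearly negative and those of arrays 1 and 3 were near 0, with a mean of -0.25 ± 0.31 (limma adjusted p 0.391).

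The 6 ORC genes lay on both sides of 0. ORC1, the largest subunit and an ATPase, had -0.60, 0.19, -0.46 and -0.27, negative on 3 of 4 arrays, with a mean of -0.28 ± 0.34 (SD, n = 4; limma adjusted p 0.363), which was -0.44 without array 2 and -0.18 without array 1. ORC5, another subunit of the ATPase family, had 0.51, -0.17, 0.63 and 0.02, so its positive mean of 0.25 ± 0.38 came from arrays 1 and 3. ORC4 had a mean of -0.17 and ORC2, ORC3 and ORC6 had 0.04, 0.13 and 0.04. As a complex ORC was close to 0, with a list mean of 0.00 ± 0.04 (SD of the 4 array means).

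The Mcm2-7 helicase genes encode the ring that unwinds DNA at the fork, and their values split into 2 kinds. MCM2 had -0.69, 1.08, -1.14 and 0.90, and MCM7 had -0.70, 1.06, -1.26 and 0.65. Both were negative on arrays 1 and 3 and positive on arrays 2 and 4, by 1.57-fold to 2.40-fold each way, so that their means, 0.04 ± 1.12 and -0.06 ± 1.10 (SD, n = 4), say little about the size on any array.

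The 4 other subunits did not do this. MCM5 had 0.21, -0.12, 0.04 and 0.03, and MCM3 had 0.17, 0.03, -0.43 and 0.10. MCM4 had 0.36, -0.44, 0.05 and -0.29, and MCM6 had 0.23, -0.20, -0.32 and -0.06. The means of these 4 genes lay between -0.09 and 0.04. On array 2, for example, MCM2 stood at 1.08 and MCM4 at -0.44.

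Firing factors had means between -0.17 and 0.15, and 0 of 6 passed. CDC7, the kinase that phosphorylates Mcm2-7, had 0.35, 0.86, -1.04 and 0.28, with array 3 alone below 0. Its activating subunit DBF4 had 0.15, 0.52, -0.48 and 0.28, again with array 3 alone below 0, and means were 0.11 ± 0.81 and 0.12 ± 0.43 (SD, n = 4). Both subunits of the kinase thus had the same order of arrays 2 and 3 as highest and lowest. SLD3, which brings Cdc45 to licensed origins, had -0.38, 0.14, -0.38 and -0.05. SLD2, which is phosphorylated by CDK and then binds Dpb11, was above 0 on all 4 arrays with 0.07, 0.41, 0.03 and 0.11. DPB11, the scaffold that binds Sld2 and Sld3, averaged -0.13, and MCM10, needed for helicase activation, averaged -0.12.

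Of Cdc45 and the 4 GINS subunits, which complete the active helicase, 0 of 5 passed. PSF1 was above 0 on all arrays, with 0.44, 0.11, 0.52 and 0.03 and a mean of 0.27 ± 0.24 (SD, n = 4; limma adjusted p 0.296). SLD5, of the same complex, was below 0 on all arrays, with -0.15, -0.43, -0.42 and -0.07 and a mean of -0.27 ± 0.18 (adjusted p 0.267). Their signs were opposite, and neither mean was large against the spread between arrays. PSF3 was also below 0 throughout, between -0.17 and -0.04, PSF2 averaged 0.01, and CDC45 averaged -0.15.

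DNA polymerase alpha and primase begin each new strand. POL12, the B subunit, had -1.45, 1.71, -1.79 and 1.51, a 2.74-fold to 3.46-fold difference on every array, but in opposite directions, and its mean was -0.01 ± 1.87 (SD, n = 4). The catalytic subunit gene POL1 had 0.02, 0.19, 0.09 and -0.08, and the primase genes PRI1 and PRI2 averaged 0.13 and 0.16. PRI2, the large primase subunit, had 0.27, -0.01, 0.09 and 0.30, positive on 3 of 4 arrays. The interval of POL1, -0.20 to 0.31, lay within 1.5-fold, whereas that of POL12 ran from -1.71 to 1.70.

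DNA polymerase epsilon copies the leading strand. Its catalytic subunit gene POL2 had -1.69, 0.92, -0.63 and 0.52, and again arrays 1 and 3 were negative and arrays 2 and 4 positive. DPB4, a small subunit with a histone fold that also serves a chromatin remodeller, had -0.10, -0.51, -0.10 and -0.77, below 0 on all arrays with the larger values on arrays 2 and 4. Its mean was -0.37 ± 0.33 (SD, n = 4; limma adjusted p 0.245), and -0.24 without array 4. DPB3, the partner of Dpb4, had -0.20, 0.50, -0.28 and 0.40, and DPB2 averaged -0.08.

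The other polymerase of the fork, delta, works with the sliding clamp PCNA. POL31, its second subunit, had the smallest SD of the set, with -0.32, -0.21, -0.32 and -0.22 and a mean of -0.27 ± 0.06 (SD, n = 4). The difference was 1.21-fold, with an unadjusted p of 0.0331 and a limma adjusted p of 0.204. The catalytic subunit gene POL3 averaged 0.08, POL32 averaged -0.01, and POL30, which encodes PCNA, had 0.16, -0.23, 0.19 and -0.15 with a mean of 0.00. The interval of POL30 ran from -0.31 to 0.30.

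Replication protein A coats single-stranded DNA. RFA1, its large subunit, had the widest swing of the set, with -0.99, 2.24, -2.07 and 1.69 on arrays 1 to 4. On array 2 the ratio was 4.72-fold one way and on array 3 4.19-fold the other way, and the mean was 0.22 ± 2.08 (SD, n = 4; limma adjusted p 0.904). RFA2 had 0.11, -0.62, 0.11 and -0.41, and RFA3 had 0.21, -0.11, 0.58 and -0.29. The smaller subunits thus had their positive values on arrays 1 and 3, where RFA1 was negative. All 5 genes of the clamp loader RFC, which places PCNA on DNA, had negative means. These means lay only between -0.13 and -0.01, and 0 of 5 passed. The medians of the 5 genes were 0.04, -0.31, 0.04 and -0.25 on arrays 1 to 4. RFC2, RFC3 and RFC4 were above 0 on arrays 1 and 3 and below 0 on arrays 2 and 4. RFC1, the large subunit, had -0.20, 0.12, -0.16 and -0.30, and RFC5 was below 0 on all 4 arrays, between -0.25 and -0.03.

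The 4 fork protection genes all had positive means, and 0 of 4 passed. MRC1, which links the polymerase to the helicase and carries the checkpoint signal, had 0.12, 0.51, 0.27 and 0.28, above 0 on all arrays, with a mean of 0.30 ± 0.16 (SD, n = 4; unadjusted p 0.0393, limma adjusted p 0.218). Its 2 probes had means of 0.28 and 0.31, and 1 of them was at -0.01 on array 1. CSM3 had 0.26, 0.11, 0.22 and 0.29, also above 0 throughout, with a mean of 0.22 ± 0.08 (adjusted p 0.276), while its binding partner TOF1 had 0.04, 0.73, -0.37 and 0.20. CTF4, the hub that ties polymerase alpha to the helicase, had -0.03, 0.77, -0.47 and 0.94, with the positive values on arrays 2 and 4, and a mean of 0.30 that was 0.09 without array 4, 0.14 without array 2 and 0.56 without array 3. The list mean of the 4 genes was 0.24 ± 0.29 (SD of array means), with 0.09, 0.53, -0.09 and 0.43 on arrays 1 to 4.

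Of the 49 genes, 10 had the same sign on all 4 arrays, a share of 20.4% against 31.1% of all features. The negative ones were CDC6, DPB4, POL31, SLD5, RFC5 and PSF3, and the positive ones MRC1, PSF1, CSM3 and SLD2. By contrast, 9 genes were negative on arrays 1 and 3 and positive on arrays 2 and 4, and 10 had the opposite arrangement, shares of 18.4% and 20.4% against 18.0% and 16.9% of all features.

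**Figure D2:**
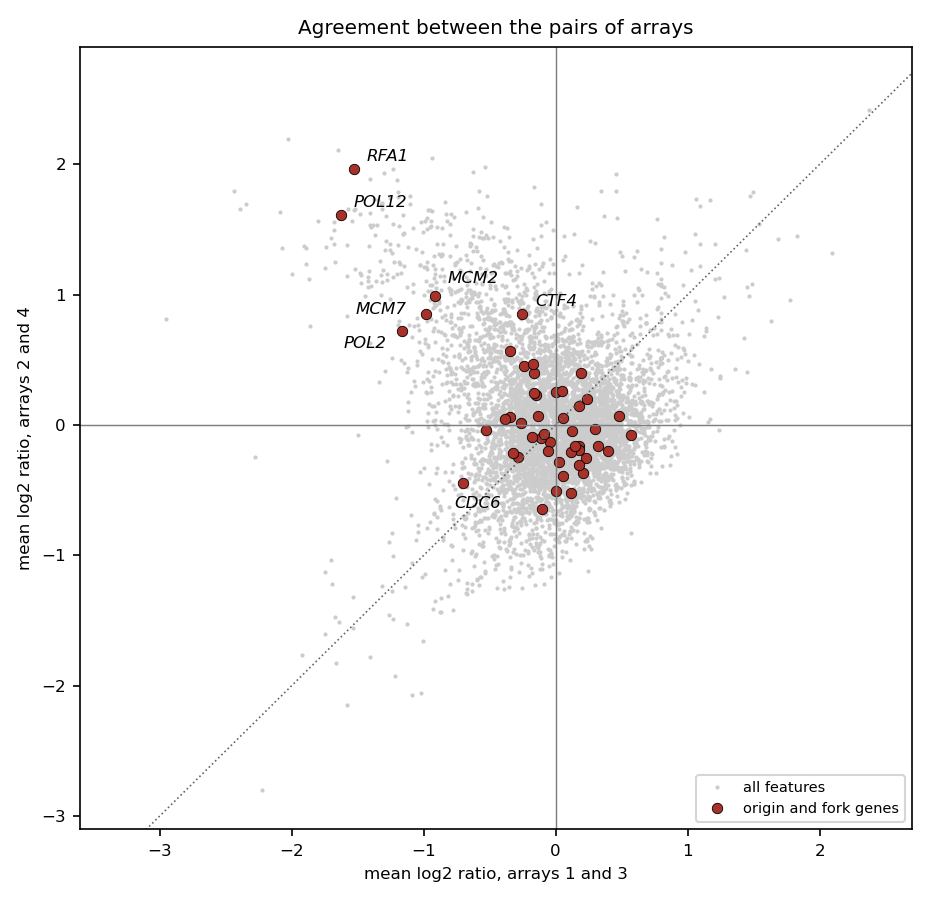
Mean log2 ratio of each feature on arrays 1 and 3 (x axis) against its mean on arrays 2 and 4 (y axis), with the 49 genes in red and all other features in grey; the dotted line marks equal values. RFA1, POL12, MCM2, MCM7 and POL2 sit at upper left, with opposite signs in the pairs, and CDC6 sits near the line at lower left.

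The genes with the largest disagreement were RFA1, POL12, MCM2, POL2, MCM7 and CTF4, singled out after their values were seen. In each, the mean of arrays 2 and 4 minus the mean of arrays 1 and 3 was above 1, with 3.49 for RFA1, 3.23 for POL12, 1.91 for MCM2, 1.88 for POL2, 1.83 for MCM7 and 1.10 for CTF4. By the size of this difference RFA1 ranked 8 and POL12 ranked 16 of 6189 features. A difference above 1 in size was found for 12.2% of the 49 genes and 12.1% of all features, a share near that of the arrays at large. All 6 had the same direction, as did 696 of the features, against 53 with a difference below -1. Without these 6 genes, the correlations of the other 43 across the pairs were -0.038, 0.204, -0.326 and -0.107, and within them 0.436 and 0.709.

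Genes of chromosomes I to III, whose probes carry the lowest numbers on the array, shared this pattern most often. RFA1 lies on chromosome I, and POL12, MCM2 and MCM7 lie on chromosome II. Of the 9 replication genes on chromosomes I to III, 6 were negative on arrays 1 and 3 and positive on arrays 2 and 4. They were the 4 just named with ORC2 and DPB3. Of the 40 on the other chromosomes, 3 had this arrangement of signs. Over all genes its shares were 37.8% of 611 on chromosomes I to III and 13.5% of 4924 on the others. A difference above 1 was found for 4 of the 9 and 2 of the 40. For that measure the shares over all genes were 28.2% of 611 and 7.62% of 4924. The median log2 ratio of the 611 genes was -0.15, 0.31, -0.19 and 0.21 on arrays 1 to 4, against 0.04, -0.05, 0.04 and -0.04 for the rest. Chromosome XII had the same order of signs in its medians, with -0.10, 0.08, -0.07 and 0.07, as did chromosome XI. The grouping by chromosome was chosen after the values were seen, and its part in the values of RFA1, POL12, MCM2 and MCM7 was not tested. RFC5 and POL30 are neighbours on chromosome II and did not have the pattern. POL2 lies on chromosome XIV beside ORC5, and the difference was 1.88 for POL2 and -0.64 for ORC5.

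**Figure D3:**
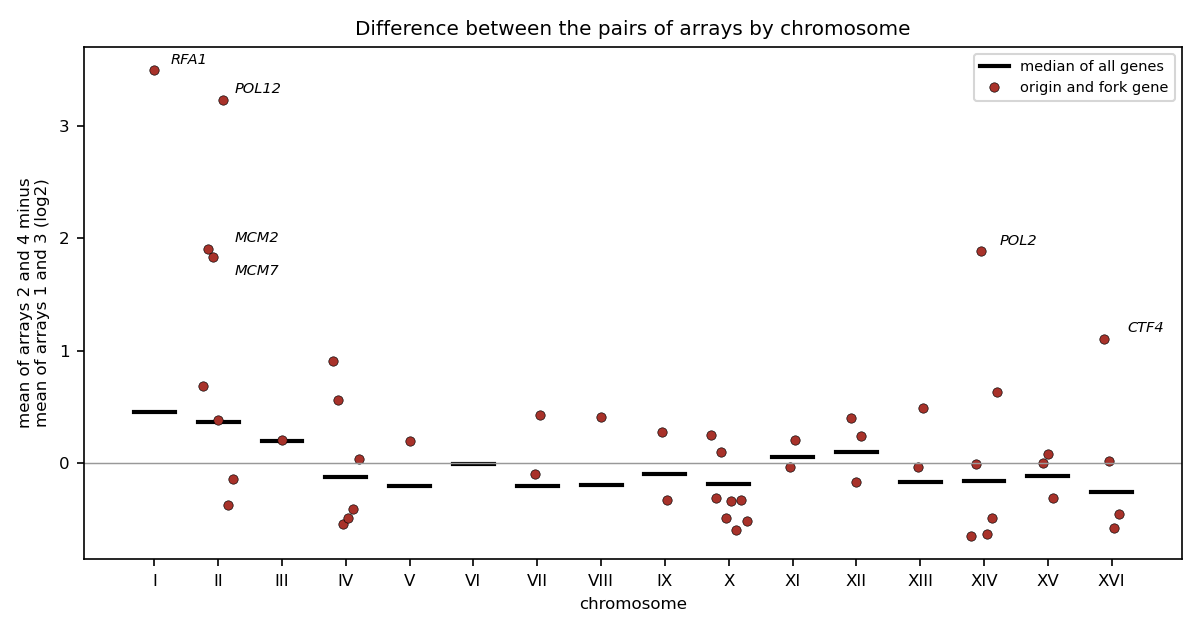
For each chromosome (x axis), the mean of arrays 2 and 4 minus the mean of arrays 1 and 3 on the log2 scale, with a red point for each of the 49 genes and a black bar at the median of all genes. The bars stand above 0 on chromosomes I to III, at 0.46, 0.37 and 0.20, and less so on XI and XII, at 0.06 and 0.10, and RFA1 and POL12 stand above 3.

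Gene length was set beside this difference. Across the 49 genes Spearman's rank correlation between the length of the gene and the difference was 0.433, and across 5535 genes it was 0.306. Within the 6 genes with a difference above 1 it was -0.714, over few points, and within the other 43 it was 0.335. Because the groups were cut on the difference itself, these values cannot show whether the relation to length changes between them. Lengths of the 6 genes ranged from 1866 to 6669 bases with a median of 2572, against a median of 1542 for the other 43. These are descriptions across genes on shared arrays, and the part of length was not tested.

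The number of genes called depended on how the arrays were fitted. With the term for the array pairs, so that only the spread within a pair counts as error, limma called 8 of 49 genes, or 16.3%, at an adjusted p below 0.05, against 32.7% of all features. The 4 negative ones were CDC6, DPB4, POL31 and TAH11, and the 4 positive ones CTF4, MRC1, ORC5 and PSF1, beside 16% of all features called negative and 16.7% called positive. On arrays 1 and 3 alone 10 of 49 were called against 33.3% of all features, 8 of them negative against 17.7% and 2 positive against 15.5%. On arrays 2 and 4 alone 17 of 49 were called against 42% of all features, 11 of them positive against 23.6% and 6 negative against 18.4%. These fits have 1 residual degree of freedom per gene. Called in both pairs were 6 genes, or 12.2%, against 16.5% of all features. RFA1, POL12, MCM2, MCM7 and POL2 had opposite signs in the pairs, 10.2% of the set against 8.84% of all features, and CDC6 had the same sign, as did 7.66% of all features. The labels put abf1-1 in channel 1 and wild type in channel 2, and they do not set arrays 2 and 4 apart. Which channel is the numerator is not stated for any array, so the fit was also made with the sign of arrays 2 and 4 reversed. Arrays 2 and 4 were picked for this from the split in the values, so calls of genes with that split are no independent support. RFA1, POL12, MCM2 and MCM7 were then called, with negative means of -1.75, -1.62, -0.95 and -0.92, a share of 8.16% against 4.88% of all features, or 4.86% counting negative calls. CDC6 then had an adjusted p of 0.801.

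Replication genes outside the 49 gave no call either. Of 77 genes in 8 further lists, 0 were called by limma, against 3.23% of all features, and 12, or 15.6%, had an unadjusted p below 0.05, against 20.8%. Of the 77, 39 had negative and 38 positive means. Among regulators of the S phase kinase, CKS1, the CDK subunit, had -0.31, -0.76, -0.44 and -0.62 with a mean of -0.53 ± 0.20 (SD, n = 4; adjusted p 0.0821). The S phase cyclin gene CLB6 had 0.50, 0.31, 0.38 and 0.36 with a mean of 0.39 ± 0.08 (adjusted p 0.108). Both had 1 sign on all arrays and missed the threshold.

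Of 13 genes of deoxynucleotide supply 11 had negative means, or 84.6% against 47.5% of all features, with a median of -0.10. The list medians were 0.11, -0.35, 0.15 and -0.20 on arrays 1 to 4, so they were negative on arrays 2 and 4 only. RNR3, an inducible ribonucleotide reductase subunit, had -0.40, -0.59, -0.36 and -0.15 with a mean of -0.38 ± 0.18 (limma adjusted p 0.151), and the nucleoside diphosphate kinase gene YNK1 had 0.91, 0.03, 1.02 and 0.15. Of 9 genes that process Okazaki fragments and nicks, RNH201, a subunit of RNase H2, averaged -0.47 ± 0.17 (adjusted p 0.0997) and RNH1 averaged 0.36 ± 0.18 (SD, n = 4; adjusted p 0.167). POB3, a subunit of the histone chaperone FACT, averaged -0.47 ± 0.14 (adjusted p 0.0877) and the architectural factor NHP6A averaged -0.40 ± 0.29 (adjusted p 0.197), among 10 nucleosome assembly genes. Of these 10, 6 had negative and 4 positive means. Of 8 genes for topoisomerases and fork helicases, SRS2 averaged -0.44 ± 0.24 (adjusted p 0.139) and RRM3 averaged -0.19. In that list 5 means were positive and 3 negative, with a median of 0.03.

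Of the 77 genes, 21 were negative on arrays 1 and 3 and positive on arrays 2 and 4. This is 27.3% against 18.0% of all features. Among the lists named next, it held for 2 of 8 alternative clamp loader and checkpoint clamp genes. It held for 3 of 9 cohesin genes and 5 of 11 checkpoint genes. The genes given had the means farthest from 0 in their lists. The alternative clamp loader gene ELG1 had -1.44, 1.498, -2.56 and 0.82, and DCC1, of another such loader, had -0.41, 1.05, -0.45 and 0.53. The cohesin gene SMC1 had -1.03, 1.84, -1.18 and 1.56. IRR1, of the same complex, had -0.47, 0.43, -0.60 and -0.10, so array 4 was also below 0. The checkpoint kinase gene TEL1 had -0.25, 1.16, -0.42 and 1.14. In the same checkpoint list LCD1, the partner of the kinase Mec1, was above 0 on all arrays with a mean of 0.28 ± 0.18 (SD, n = 4; limma adjusted p 0.242).

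**Figure D4:**
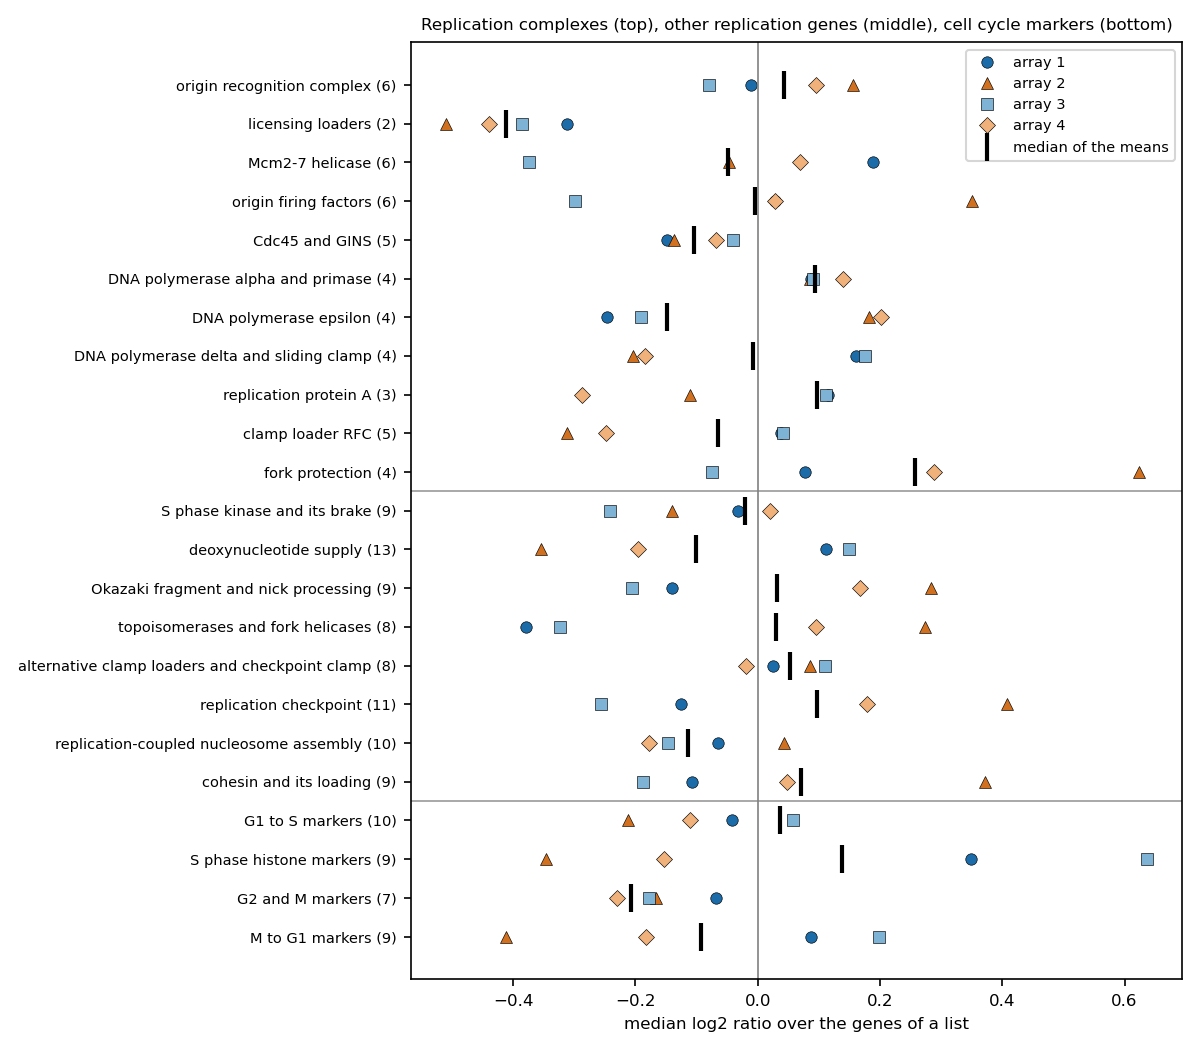
Median log2 ratio over the genes of each list on arrays 1 to 4 (coloured markers) and the median of the gene means (black bar), with the number of genes in parentheses. Lists of replication complexes stand at the top, other replication genes in the middle and cell cycle markers at the bottom. The licensing loaders are below 0 on all 4 arrays, and the histone markers are above 0 on arrays 1 and 3 and below 0 on arrays 2 and 4.

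Markers of the cell cycle were read beside these values, since many of the 49 genes are periodic. In the 4 marker lists limma called 0 genes, and 0 of 10 late G1, 1 of 9 histone, 2 of 7 G2 and M and 0 of 9 M to G1 markers had an unadjusted p below 0.05, as did 20.8% of all features. Histone genes, whose transcripts peak in S phase, had medians of 0.35, -0.35, 0.64 and -0.15 on arrays 1 to 4, positive on arrays 1 and 3. Of these 9 genes, 6 had positive and 3 negative means, with a median of 0.14. The largest mean was that of HHF2 at 0.37 ± 0.63, followed by HHF1 at 0.33 ± 0.22 (SD, n = 4; limma adjusted p 0.461 and 0.219); the histone genes exist in near-identical copies that may share signal.

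Genes of late G1 had a median of 0.04, with SWI4, a subunit of the transcription factor SBF, at 0.39 ± 1.41 and the cyclin gene CLN1 at -0.17 ± 0.23. All 7 measured G2 and M markers had negative means, with a median of -0.21, CLB1 at -0.41 ± 0.25 and HST3 at -0.37 ± 0.26 (SD, n = 4; limma adjusted p 0.169 and 0.206). Of 9 markers of the M to G1 transition 5 had negative means and 4 had positive means of up to 0.17. EGT2 was at -0.35 ± 0.30 and DSE2 at -0.23 ± 0.36 (SD, n = 4), with limma adjusted p of 0.246 and 0.485. The medians of these 9 markers were 0.09, -0.41, 0.20 and -0.18 on arrays 1 to 4. The part of cell cycle position in the values of CDC6 or other genes of the set was not tested.

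Within the set, genes reported to peak at different times had medians close to 0 on either side. The 13 genes described as targets of the late G1 factor MBF, POL1 and RFA1 among them, had a median of 0.05, and the 7 described as late M and early G1 genes, which are CDC6 and the Mcm2-7 genes, had -0.06. In the first list 7 had positive and 6 negative means, and in the second 2 and 5. Between the array pairs, 4 genes of the first list and 2 of the second differed by more than 1. These are 30.8% and 28.6%, against 12.2% of the 49 genes and 12.1% of all features. In such genes values of opposite sign cancel in the mean. The genes concerned are the same 6 that were singled out above after their values were seen. Of them, 4 lie on chromosomes I to III, where 28.2% of all genes had a difference above 1. Whether the shares have to do with the time of the peak was not tested. Neither list held a called gene.

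Of the 49 genes, 29 had a measured neighbour transcribed in the opposite direction from a shared upstream region, and 1 of these neighbours was called, a share near the 3.23% of all features. This was TRM1, for a tRNA methyltransferase, beside DPB4. The neighbours named here were chosen after their values were seen. TRM1 had -0.74, -0.78, -0.47 and -0.76 with a mean of -0.69 ± 0.14 (SD, n = 4; limma adjusted p 0.0374), but with array 1, 3 or 4 left out no feature was called. DPB4 was negative on the same 4 arrays with a mean of -0.37. ELO1, the fatty acid elongase gene opposite CDC6, had 0.03, -0.76, -0.14 and -0.21 with a mean of -0.27 ± 0.34 (adjusted p 0.386), so on array 1, where CDC6 was at its lowest, ELO1 was near 0. SEN34, opposite RFA1, had 0.00, -0.59, -0.10 and -0.32, without the positive values that RFA1 had on arrays 2 and 4.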

How the data were processed

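The authors deposited 1 log ratio per probe and array for 6226 probes, taken here as log2 from the values, which lie between -4.30 and 2.67; the sources used here do not state the log base, the numerator, the background correction or the normalization. Per the labels, channel 1 held abf1-1 and channel 2 wild type RNA. The 4 arrays form 1 group, numbered as in the labels. No spot brightness was used, so the number of arrays limits precision.

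Gene names came from the annotation of the platform (5576 with 1 gene, 0 with several, 650 with none) and symbols updated through the RefSeq table of assembly R64, used also for gene length and neighbours. Values were centred on the median of their array, and probes of 1 gene were averaged, leaving 6189 features. None of the 49 genes carried the exact value that many probes of an array share. Each mean was tested against 0 with limma 3.58.1 in R 4.3.3 (lmFit, eBayes, intercept only, 3 residual degrees of freedom, two-sided, Benjamini-Hochberg over all features). The fit was tried on simulated data with independent arrays, which do not hold the split between array pairs seen here. Tables used Python 3.11.15 and pandas 2.3.3, plots matplotlib 3.10.9.

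The genes and lists were chosen with earlier results of these data known. Values on every array are given for the 3 most positive and 3 most negative means, and the gene farthest from 0 in each complex. From other lists, the rule was the 2 means farthest from 0. Values by array of further genes of the set were added after they were seen. Alternatives covered centring, scaling, quantile normalization, arrays left out or paired, turned signs, weights, robust fits, thresholds, single probes and shared values. Promoter sequences were not analysed here.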

Additional observations from a re-analysis of the deposited data

Results flagged for a closer look

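With 49 genes examined over 4 arrays, 2 had a single array that stood apart from the other 3 by Dixon's criterion, in which the gap to the nearest array is divided by the whole range. Chance gives this in about 1 of 20 groups. For MCM10, which acts in helicase activation, the ratio was 0.845, because array 2 had 0.29 while arrays 1, 3 and 4 had -0.31, -0.22 and -0.26. For PSF2, a GINS subunit, it was 0.851, because array 3 had 0.45 while arrays 1, 2 and 4 had -0.10, -0.19 and -0.13.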

How the results depend on the processing

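The count of 0 called replication genes held with ratios not centred, equal spread, quantile normalization, robust eBayes, array weights, single probes, features with the shared value left out, a 1.5-fold minimum, a threshold of 0.01 on the adjusted p and each array left out. At the same time, 3 had an unadjusted p below 0.05. It was 8 with the term for arrays 1 and 3, 10 on arrays 1 and 3 alone, 17 on arrays 2 and 4 alone and 4 when arrays 2 and 4 had their signs turned. For the 77 other replication genes the counts were 18, 22, 30 and 9 in these 4 settings, 12 at an unadjusted p below 0.05, and 0 with each array left out. The shares of all features called in these 4 settings were 32.7%, 33.3%, 42% and 4.88%. Over all features 200 were called, but 98 with quantile normalization, 2021, 2059, 2602 and 302 in the same 4 settings, 2 at an adjusted p below 0.01 and 1286 at an unadjusted p below 0.05. With 1 array left out it was 0 to 22, the 22 being without array 2 and the 0 without array 1, 3 or 4, and then 3 residual degrees of freedom become 2. The causes were not tested. The median of the 49 genes stayed between -0.06 and 0.01, and the number with a negative mean between 23 and 29, over the settings run. With turned signs 25 of the 49 means changed sign. Among the genes followed through the settings these were DPB4 (0.27), CTF4 (-0.55), MRC1 (-0.10), MCM6 (0.046), RFA1 (-1.75) and MCM2 (-0.95), and quantile normalization turned the sign of MCM2 (-0.0106). With 1 array left out the mean ranged from -0.46 to 0.98 for RFA1, from -0.31 to 0.43 for MCM2, from -0.44 to 0.34 for MCM7, from -0.58 to 0.59 for POL12 and from -0.60 to 0.27 for POL2. Without a change of sign it ranged from 0.09 to 0.56 for CTF4, from -0.46 to -0.24 for DPB4 and from -0.44 to -0.18 for ORC1. Turned signs apart, CDC6 had an adjusted p of 0.00196 to 0.264 over its settings. No paired analysis was possible because the samples form 1 group, in which each ratio already pairs the strains within an array. With no spot brightness, the depth of signal behind a ratio is unknown.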
